A study of Mus musculus with 62 samples.

Results

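Sprr1a, the gene for small proline-rich protein 1A, was detected in some cells and not in others of a single culture of KPC1199-EGFP cells. KPC1199-EGFP is a mouse pancreatic cancer line of C57BL\6 background that carries EGFP. Of the 62 single-cell libraries, 50 had a spike-in share under 20% of all counts and were kept, spike-ins being synthetic ERCC RNAs added in known amount. Within the 50, cells with Sprr1a at 1 CPM or more (CPM being counts scaled to the usual common total over gene rows) were called Sprr1a-expressing (18 cells) and cells under 1 CPM Sprr1a-negative (32 cells). All cells were untreated, grown attached to plastic and taken at passage 9, then trypsinised and captured singly on a Fluidigm C1 chip. The submitters profiled them as controls, at the passage that was injected into mice to form tumours.

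The labels name 1 culture, so the 18 and the 32 cells are 2 sets of cells from 1 sample and not replicated groups. The cells of each set were selected on their measured Sprr1a values, so Sprr1a itself is given as a description. For these reasons no p-value or standard error was computed. Differences between the sets are given on the log2(CPM + 1) scale with the SD over cells. A gene was said to pass the size rule when its mean differed by 1 or more on that scale and by at least 0.8 times the pooled SD within the sets.

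Small proline-rich proteins are building blocks of the cornified envelope, the cross-linked protein shell that transglutaminases assemble under the membrane of squamous epithelial cells. Sprr1a is also known as a gene that injured neurons, strained heart muscle and damaged gut epithelium switch on. In keratinocytes the SPRR genes are known to be controlled through AP-1, the dimer of Fos and Jun family proteins.

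The promoter of Sprr1a is shown with those of Ankrd1 and F3, because these 2 targets of the YAP and TEAD factors passed the size rule (F3 not with every alternative) and each has 1 start in the RefSeq table. The 250 bases before each annotated start are printed 5′ to 3′ on the strand of the gene, from RefSeq on build GRCm38.p6, at chr3:92485882-92486131 on the minus strand for Sprr1a, chr19:36119845-36120094 on the minus strand for Ankrd1 and chr3:121723287-121723536 on the plus strand for F3. Capitals mark every match to the AP-1 motif TGANTCA, the TEAD motif GGAATG or its reverse complement CATTCC, and the TATA box TATAAA on the gene's strand.
Sprr1a: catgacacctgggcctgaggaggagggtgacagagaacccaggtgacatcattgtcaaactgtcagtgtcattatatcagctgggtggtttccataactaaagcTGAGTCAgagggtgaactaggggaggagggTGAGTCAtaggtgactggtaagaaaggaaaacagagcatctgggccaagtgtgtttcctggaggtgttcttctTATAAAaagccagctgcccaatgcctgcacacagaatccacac
Ankrd1: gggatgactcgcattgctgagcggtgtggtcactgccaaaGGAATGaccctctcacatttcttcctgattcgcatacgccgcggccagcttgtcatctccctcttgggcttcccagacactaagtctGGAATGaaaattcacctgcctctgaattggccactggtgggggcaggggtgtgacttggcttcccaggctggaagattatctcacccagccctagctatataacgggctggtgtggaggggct
F3: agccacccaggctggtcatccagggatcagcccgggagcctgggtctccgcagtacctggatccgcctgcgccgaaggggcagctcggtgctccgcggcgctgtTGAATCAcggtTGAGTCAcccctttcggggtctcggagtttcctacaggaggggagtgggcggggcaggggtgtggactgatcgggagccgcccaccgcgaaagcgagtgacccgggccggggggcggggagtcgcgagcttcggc

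The Sprr1a promoter held TGAGTCA at positions -146 and -116 from the start and TATAAA at -43. F3 had TGAATCA at -146 and TGAGTCA at -135. Ankrd1 had no match to TGANTCA and held GGAATG at -210 and -123. No matches overlapped. Among 32851 RefSeq promoter windows of the same length, 6.75% held TGANTCA, 12.6% held GGAATG on either strand and 7.59% held TATAAA. These matches describe letters and not occupied sites.

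Sprr1a was at 1 CPM or more in 18 of 50 cells (36%, exact Clopper-Pearson 95% interval 22.9 to 50.8), and its level spread widely among them. The lowest expressing cell, library 18, had 5.17 CPM, the median was 47.1 CPM and the highest, library 44, had 3211 CPM. Library 42 followed at 2282 CPM, and these 2 cells held 83.0% of the summed Sprr1a CPM of the 50. Libraries 17, 16 and 26 came next at 304, 224 and 101 CPM, and 12 cells lay between 10 and 100 CPM. Of the 32 negative cells, 29 were at 0 and 3 lay above 0, the highest of them at 0.117 CPM. The threshold therefore fell in an empty range between 0.117 and 5.17 CPM. Whether Sprr1a was silent in the cells at 0 was not tested.

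**Figure D1:**
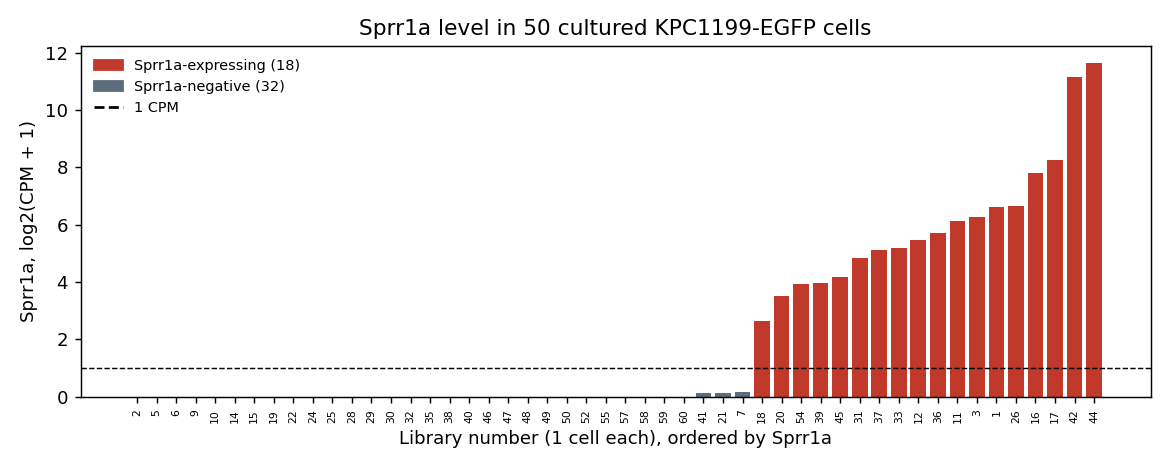
Sprr1a level in each of the 50 libraries, as log2(CPM + 1), ordered from lowest to highest, with the library number on the horizontal axis. Red bars are the 18 Sprr1a-expressing cells, grey bars the 32 negative cells, and the dashed line marks 1 CPM, which lies between 0.117 and 5.17 CPM, the values of the nearest cells.

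Sequencing depth was similar in both sets, while RNA content was not. Gene counts ran from 2153895 to 10757652 (median 6945416) in expressing cells and from 2536572 to 12868806 (median 7321909) in negative cells. Expressing cells had a median of 9277 detected genes (range 6935 to 11068) and negative cells 8666 (6832 to 10708). After thinning every library to 2000000 gene counts the medians were 8634 and 8066. Gene counts per spike-in count, a measure of RNA recovered per cell, had a median of 190 in expressing cells (61.6 to 524) and 136 in negative cells (53.6 to 460). The ranges overlapped for every one of these measures. Expressing cells occurred in 7 of the 8 blocks of 12 consecutive label numbers, with 0 to 4 such cells among the 5 to 7 cells of a block.

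**Figure D2:**
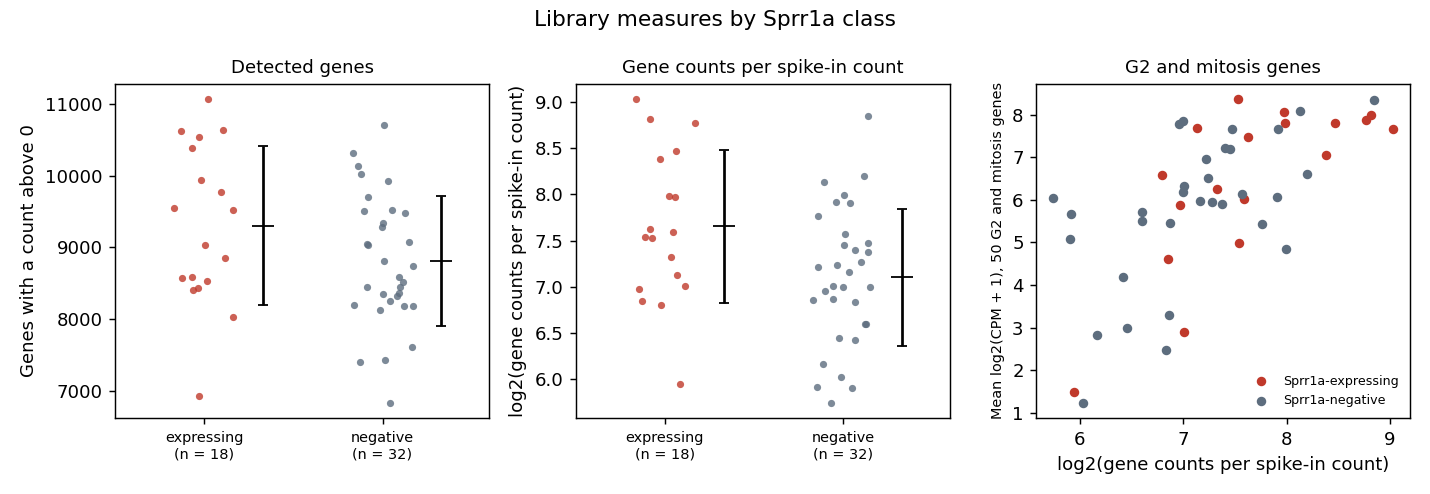
Detected genes (left) and log2 gene counts per spike-in count (middle) for 18 expressing (red) and 32 negative (grey) cells, with mean and SD as black bars, and (right) the mean level of 50 G2 and mitosis genes against log2 gene counts per spike-in count. Median detected genes were 9277 and 8666, and the sets overlapped in all 3 panels. The higher mean G2 and mitosis level of expressing cells (6.47 against 5.79) turned to a difference of -0.14 with gene counts per spike-in count as a term.

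Of 11748 other genes compared, 75 were higher in the Sprr1a-expressing cells by the size rule (0.638%) and 12 were lower (0.102%), together 0.741% of the genes. Among the genes past the rule, Ccdc109b, Gsn and Fez2 had the largest positive differences, and Nectin3, St3gal5 and Rnf103 the largest negative ones. All of these genes were detected in some cells of both sets. With the label-number block as a term, 107 genes were higher and 29 lower. Scaling by spike-ins instead of gene counts raised the median difference of all genes from 0.08 to 0.47 and gave 270 higher and 0 lower genes. With RNA content (log2 of gene counts per spike-in count) as a term the counts were 48 and 80, and 41 of the 75 higher and all 12 lower genes remained. Without library 19, a negative cell, 20 genes were lower.

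Ccdc109b, which encodes a subunit that dampens the mitochondrial calcium uniporter, had the largest positive difference. Its median was 43.5 CPM in expressing cells (0 to 139.9) and 0 in negative cells (0 to 89.98). It stood at 1 CPM or more in 16 of 18 expressing cells (88.9%, interval 65.3 to 98.6) and in 11 of 32 negative cells (34.4%, interval 18.6 to 53.2), and the counts were the same after thinning. The mean was 4.79 ± 2.15 (SD, n = 18) against 1.76 ± 2.53 (SD, n = 32), a difference of 3.03. The sets overlapped, since 2 expressing cells were under 1 CPM and 11 negative cells were not.

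Gsn, which encodes the actin-severing protein gelsolin, had the highest Spearman correlation with Sprr1a over the 50 cells (rho = 0.56). Its median was 35.3 CPM in expressing cells (0 to 222.5) and 1.59 CPM in negative cells (0 to 72.9), a difference of 2.61. All but 2 of the 18 expressing cells lay above the median of the negative cells. Within the 18 expressing cells rho was 0.38.

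Il1r1, the signalling receptor for interleukin 1, was at 1 CPM or more in 16 of 18 expressing cells and 8 of 32 negative cells (88.9%, interval 65.3 to 98.6, and 25%, interval 11.5 to 43.4). Thinned to equal depth, the counts were 15 and 9. Its medians were 8.18 CPM (0 to 129.8) and 0 CPM (0 to 50.98), and the difference was 2.27. Clcf1, a cytokine of the gp130 family, was found in 10 of 18 and 8 of 32 cells, with medians of 6.34 CPM (0 to 38.3) and 0 CPM (0 to 17.7) and a difference of 1.61. It was the 1 gene of 21 compared in the gp130 and STAT3 list that passed the size rule, and 10 of the 21 had a difference above 0. Over all genes compared, 0.741% passed and 56.4% had a difference above 0. The median of that list, -0.01, became 0.45 with spike-in scaling.

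Ankrd1, a nuclear ankyrin-repeat protein and textbook YAP target, had medians of 52.8 CPM (0 to 192.5) in expressing and 7.12 CPM (0 to 575) in negative cells. The highest single value lay in a negative cell, although the mean difference was 2.40. F3, the tissue factor that starts blood clotting, was present in every cell of both sets. Its medians were 330 CPM (38.4 to 2081) and 140 CPM (22.3 to 909), and the difference was 1.26. With the label-number block as a term the F3 difference was 0.97, and with every cell above 0 for Sprr1a counted as expressing it was 0.84, both under the limit of 1. Cyr61, a secreted YAP target that is also an immediate early gene, differed by 2.49 but by 0.71 pooled SDs, short of the rule, with medians of 337 CPM (0 to 2193) and 91.6 CPM (0 to 1947).

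Among the rest of the 15 largest positive differences past the size rule, Emp2, a tetraspan membrane protein, was above the negative median in 18 of 18 expressing cells, at 28.7 CPM (0.585 to 106.4) against 0.533 CPM (0 to 174.3). Galnt3, which starts mucin-type O-glycosylation, stood at 36.4 CPM (0 to 85.4) against 0.149 CPM (0 to 94.1). Slc23a2, a vitamin C transporter, stood at 45.2 CPM (0 to 154.6) against 0.516 CPM (0 to 63.8). Both differences lay close together, at 2.20 and 2.28. Vipas39, a partner of VPS33B in vesicle sorting, differed by 2.40.

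Bcl2l15, a member of the BCL2 family, was at 1 CPM or more in 12 of 18 expressing and 4 of 32 negative cells. Its medians were 12.7 CPM (0 to 54.3) and 0 CPM (0 to 55.98). H2-T22, a non-classical MHC class I gene, was found in 12 of 18 and 7 of 32 cells, with a difference of 2.34, but H2 genes resemble each other closely and reads may have been shared between them. The rest of the 15 were Fez2 (2.49), Fpgt (2.39), Rnf14 (2.38), Shtn1 (2.29) and Ascc2 (2.28), with the difference of each in parentheses. Of these, Rnf14 is a ubiquitin ligase and Fpgt an enzyme of fucose salvage.

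After Gsn, the highest Spearman correlations over the 50 cells were those of Il1r1 (0.55), Ccdc109b (0.53), Fez2 (0.52), Trim11 (0.51), 5430425K12Rik (0.51), Ipo13 (0.50), Ptgs2os (0.50), BC065397 (0.49) and Shtn1 (0.49). All 50 points share 1 culture, and 29 of them are tied at a Sprr1a of 0. These correlations use the Sprr1a values that made the split, so they are not separate from the differences between the sets. Within the 18 expressing cells, rho for the genes just listed ran from -0.13 for Ipo13 to 0.43 for BC065397. Trim11, a ubiquitin ligase, was in 13 of 18 expressing and 5 of 32 negative cells. Ipo13, a nuclear import receptor, was in 11 of 18 and 4 of 32. Ptgs2os lies antisense to Ptgs2, the inducible cyclooxygenase, and was in 8 of 18 and 1 of 32 cells. How the counts treated strand is not given in the sources used here, so reads of that pair cannot be told apart. Ptgs2 itself had medians of 51.6 CPM (0 to 353) and 0.119 CPM (0 to 327), with a difference of 2.31 at 0.77 pooled SDs.

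**Figure D3:**
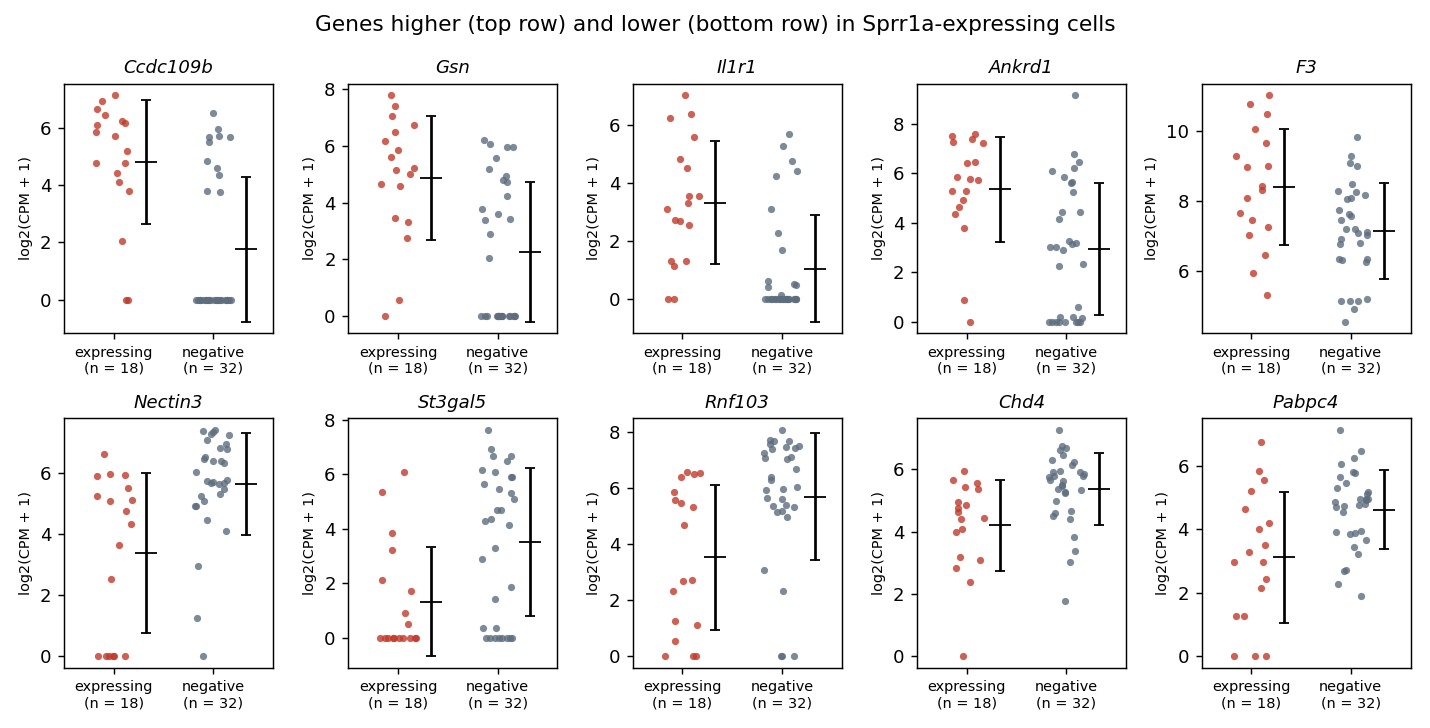
Level of 5 genes that were higher and 5 that were lower in Sprr1a-expressing cells, as log2(CPM + 1) for each of 18 expressing (red) and 32 negative (grey) cells, with mean and SD as black bars. Ccdc109b had means of 4.79 and 1.76 and Nectin3 3.37 and 5.64, and the sets overlapped for every gene shown.

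Nectin3, a cell adhesion molecule, had the largest negative difference. It was at 1 CPM or more in 12 of 18 expressing cells (66.7%, interval 40.99 to 86.7) and 31 of 32 negative cells (96.9%, interval 83.8 to 99.9). Medians were 22.7 CPM (0 to 98.4) and 53.2 CPM (0 to 170.8), and the means were 3.37 ± 2.62 (SD, n = 18) and 5.64 ± 1.68 (SD, n = 32), a difference of -2.27. A group of 6 expressing cells was under 1 CPM, and all 18 fell within the range of the negative cells.

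St3gal5, which makes the ganglioside GM3, was in 6 of 18 expressing cells and 22 of 32 negative cells (33.3%, interval 13.3 to 59.01, and 68.8%, interval 49.99 to 83.9). Thinning gave 7 and 21. Rnf103, a ubiquitin ligase of the endoplasmic reticulum, was at 15.03 CPM (0 to 93.3) against 70.3 CPM (0 to 268). The differences were -2.19 and -2.16.

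Chd4, the ATPase of the NuRD complex, had medians of 22.2 CPM (0 to 61.1) and 48.6 CPM (2.41 to 153.5), and 2 of 18 expressing cells exceeded the median of the negative cells. Bptf, a subunit of the NURF remodeller, stood at 27.9 CPM (0 to 95.1) against 50.7 CPM (15.8 to 186.9). Pabpc4, a poly(A)-binding protein, stood at 7.85 CPM (0 to 106.5) against 27.4 CPM (2.78 to 139.6). The 3 differences were -1.18, -1.35 and -1.51, and each gene was at 1 CPM or more in all 32 negative cells. The others were Adat3 (-1.56), the DNA damage mediator Mdc1 (-1.54), Eid1 (-1.26), Nme7 (-1.21), 2900097C17Rik (-1.07, under 1 in size with the block as a term) and 1700123O20Rik (-1.07). Leaving out 1 library could bring Chd4 to -0.93, Eid1 to -0.95 and Nme7 to -0.91. It could bring 2900097C17Rik to -0.85 and 1700123O20Rik to -0.77, and all of these values lay under 1 in size.

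The lowest Spearman correlations with Sprr1a included those of Kpnb1 (-0.53), Tsen15 (-0.48), Top1 (-0.47) and Timm22 (-0.46). None of these 4 passed the size rule. Kpnb1, the main nuclear import receptor, stood at 80.5 CPM (19.5 to 182.5) against 165.5 CPM (0 to 443), and 1 of 18 expressing cells exceeded the negative median.

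No other gene of the cornified envelope list passed the size rule, which 0.741% of all genes compared passed. Of 59 genes listed for cornification and squamous identity, 49 had a row, 11 of those were at 0 in all 50 cells, and 14 reached 1 CPM in at least 5 cells. Of the 14, 0 passed the size rule in either direction, which at so low a general share does not set the list apart. A difference above 0 was found for 6 of the 14, against 56.4% of all genes compared. Their median difference was -0.15, while the mean level over the 14 genes was 2.61 ± 0.56 (SD, n = 18) and 2.42 ± 0.53 (SD, n = 32), a difference of the opposite sign, 0.19. That mean level exceeded the negative median in 13 of 18 expressing cells, and its rho with Sprr1a was 0.35 over the 50 cells and 0.55 within the 18 expressing cells. With spike-in scaling the median became 0.29, below the shift of 0.47 of all genes.

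Among the Sprr relatives, Sprr2d, Sprr2e, Sprr2f, Sprr2g, Sprr2i, Sprr3 and Sprr4 were at 0 CPM in both sets. Sprr1b was at 1 CPM or more in 2 of 18 expressing and 1 of 32 negative cells, with a highest value of 14.5 CPM. Sprr2a3 was in 3 and 3 cells, Sprr2h in 2 and 2, and Sprr2k in 1 and 0. Sprr2a1 and Sprr2a2 were each in 1 and 1. Sprr2 genes are near-identical copies, and the authors' estimates may have divided reads between them. Sprr1a thus reached 3211 CPM in a culture where the highest value of any relative was 42.8 CPM, in Sprr2h.

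Other envelope genes appeared in few cells. Ivl, the gene for the envelope scaffold involucrin, was in 5 of 18 and 5 of 32 cells, and its highest values, 659 CPM and 328 CPM, lay 1 in each set. The 659 CPM belonged to library 44, the cell of highest Sprr1a. Serpinb5, the epithelial serpin maspin, was in 6 of 18 and 4 of 32 cells and differed by 1.32 at 0.65 pooled SDs. Within the expressing cells its rho with Sprr1a was 0.58. Evpl, encoding the envelope linker envoplakin, was in 4 and 1 cells. Lor, encoding loricrin, was in 1 and 5 cells.

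Genes of epithelial injury and regeneration stood higher in the expressing cells, with 30 of 35 differences above 0, a median of 0.52 and 1 gene, F3, past the size rule, though not with the label-number block as a term. Of all genes compared, 56.4% had a difference above 0, 0.741% passed the size rule and the median was 0.08. The mean level over the 35 genes was 7.06 ± 0.55 (SD, n = 18) and 6.47 ± 0.70 (SD, n = 32). The lowest expressing cell stood at 6.22 and the lowest negative cell at 4.94, while the highest stood at 8.12 and 7.83. The highest of all was library 42, which was second in Sprr1a. The rho of this level with Sprr1a was 0.39 over the 50 cells and 0.05 within the 18 expressing cells. With gene counts per spike-in count as a term, 25 of 35 differences were above 0 and the median was 0.36.

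Anxa2, a membrane-binding annexin, had the largest difference in pooled SDs of that list (0.93), at 2924 CPM (1484 to 6591) against 2098 CPM (648 to 7432). Its difference on the log2 scale was 0.63, below the size rule. S100a16 differed by 1.05 pooled SDs and by 0.75 on the log2 scale, also below the rule, with medians of 1120 CPM (404 to 1668) and 673 CPM (162 to 1446). S100a14, another calcium-binding S100 protein, was the 1 of 13 S100 genes to pass, at 42.9 CPM (0 to 137.1) against 4.79 CPM (0 to 194.6). Over all genes compared, 0.741% passed. Ly6a, the surface antigen Sca-1, differed by 2.03 at 0.54 pooled SDs, and the sets ran from 0 to 3536 CPM and from 0 to 3807 CPM. Anxa10, a gastric-type annexin, stood at 107 CPM (0 to 407) against 22.6 CPM (0 to 657).

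The YAP and TEAD target list had 19 of 26 differences above 0, against 56.4% of all genes compared, and a median of 0.33. It had 2 genes past the size rule, Ankrd1 and F3, where 0.741% of all genes compared passed. F3 did not pass with the label-number block as a term. The mean level of the list was 3.81 ± 0.44 (SD, n = 18) and 3.35 ± 0.67 (SD, n = 32), and 15 of 18 expressing cells exceeded the median of the negative cells. The rho of that level with Sprr1a was 0.04 within the 18 expressing cells. With gene counts per spike-in count as a term the list had 14 of 26 above 0 and a median of 0.12.

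Of 28 AP-1 and immediate early genes, 22 had a difference above 0, against 56.4% of all genes compared. The list median was 0.40, and 0 of these 28 genes passed the size rule, which 0.741% of all genes compared passed. Their mean level was 4.80 ± 0.84 (SD, n = 18) and 4.27 ± 1.09 (SD, n = 32), and its rho with Sprr1a was -0.11 within the expressing cells. Junb, a Jun family member, stood at 99.7 CPM (14.4 to 263) against 51.2 CPM (0 to 412), and Klf6 at 292 CPM (65.99 to 1107) against 187 CPM (1.07 to 466). Fos and Fosb, chosen after their values were seen, had differences of the other sign, -0.58 and -0.95. What trypsin and capture added to these genes was not tested.

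Cell cycle genes differed by phase. Of 50 G2 and mitosis genes, 46 had a difference above 0, against 56.4% of all genes compared. These 50 genes had a median of 0.73 and 0 past the size rule, which 0.741% of all genes compared passed. Their mean level was 6.47 ± 1.91 (SD, n = 18) in expressing cells and 5.79 ± 1.73 (SD, n = 32) in negative cells, and the medians were 7.27 (1.47 to 8.37) and 6.01 (1.23 to 8.33). The rho of this level with Sprr1a was -0.24 within the expressing cells. Prc1, a spindle midzone protein, stood at 305 CPM (0.267 to 1273) against 45.8 CPM (0 to 481). RNA content moved with this list. With gene counts per spike-in count as a term, 20 of 50 differences were above 0 and the median was -0.17. Among the 5 cells at 100 CPM of Sprr1a or more the mean level was below that of the other 45, by a difference of -0.31, and library 17, at 304 CPM, had the lowest level of the 18 expressing cells (1.47).

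S phase genes stood lower on the CPM scale, with 10 of 46 differences above 0 and a median of -0.38, but higher with spike-in scaling, where 27 of 46 were above 0 and the median was 0.14. That value was still below the shift of 0.47 of all genes. With gene counts per spike-in count as a term, 1 of 46 was above 0 and the median was -0.83. Their mean level was 5.46 ± 1.45 (SD, n = 18) and 5.84 ± 1.31 (SD, n = 32), and 6 of 18 expressing cells exceeded the negative median. Within the expressing cells the rho of this level with Sprr1a was -0.59 (n = 18). Slbp, which binds histone mRNA, stood at 259 CPM (74.4 to 780) against 494 CPM (103 to 850), a difference of -0.74 that was -0.19 with spike-in scaling and 0.73 over all 62 libraries. Ung, a uracil-DNA glycosylase, was in 4 of 18 and 17 of 32 cells.

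**Figure D4:**
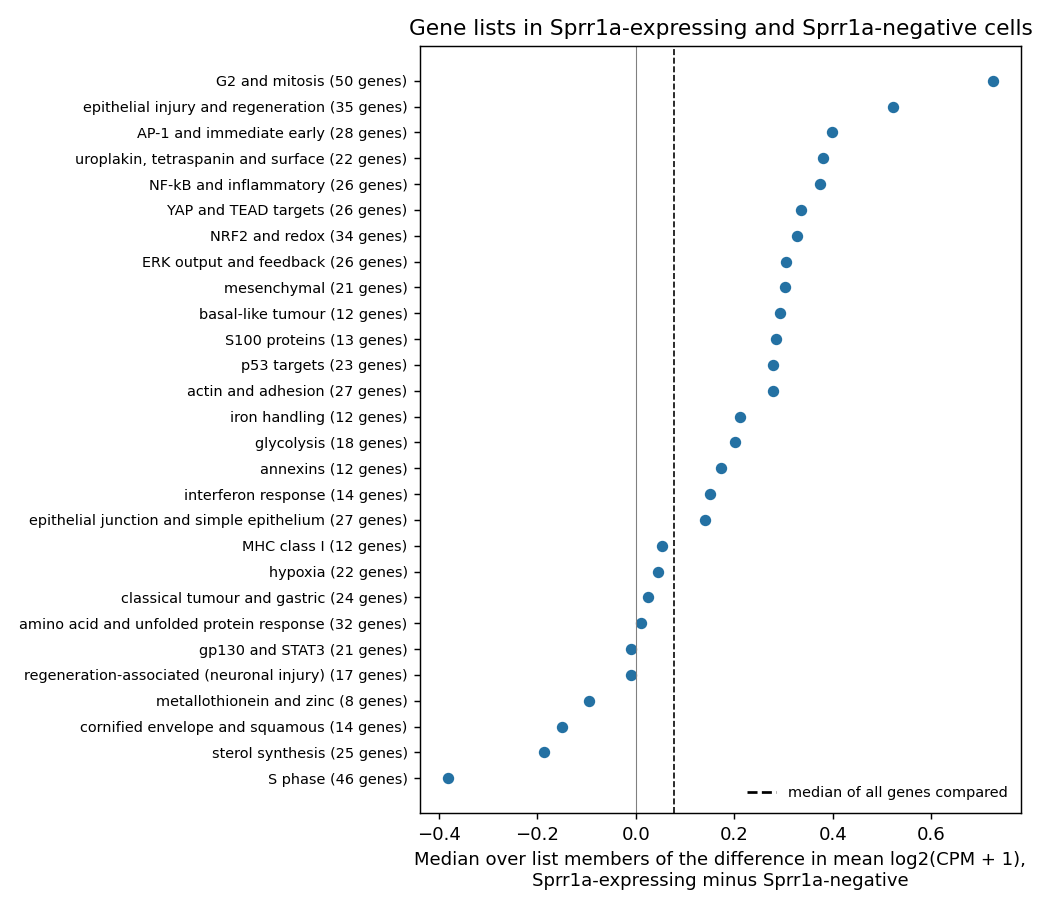
Median over list members of the difference in mean log2(CPM + 1), expressing minus negative, for 28 gene lists, with the number of genes compared in parentheses and the median of all 11748 genes as a dashed line at 0.08. G2 and mitosis stood at 0.73 and S phase at -0.38, a value that became 0.14 with spike-in scaling.

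Metabolic and stress lists other than NRF2 and redox mostly lay nearer to the median of all genes. NRF2 and redox genes had 25 of 34 differences above 0 and a median of 0.33, with opposite differences for a pair of glutathione transferases, 1.46 for Gsta1 and -1.70 for Gstm2. The median of the NRF2 and redox list became 0.13 (21 of 34 above 0) with gene counts per spike-in count as a term. Glycolysis genes had 13 of 18 above 0 and a median of 0.20. Hk1, a hexokinase, passed the size rule at 42.5 CPM (3.54 to 167.9) against 15.4 CPM (0 to 112.8), and Pfkp, a phosphofructokinase, differed by 2.13 at 0.77 pooled SDs. Hypoxia genes (11 of 22 above 0) and amino acid and unfolded protein response genes (16 of 32) had medians of 0.04 and 0.01, which became -0.07 and -0.18 with gene counts per spike-in count as a term. Sterol synthesis genes had 10 of 25 above 0 and a median of -0.19, which became 0.33 with spike-in scaling and -0.44 (5 of 25 above 0) with gene counts per spike-in count as a term. The 17 compared genes of the list for neuronal injury, of which Sprr1a is a known companion, had a median of -0.01 that became 0.36 with spike-in scaling, and Ankrd1 was the 1 past the rule. Over all genes compared, 56.4% had a difference above 0 and 0.741% passed the rule.

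Epithelial and mesenchymal genes were detected in both sets, and most of the mesenchymal ones stood higher in the expressing cells. The epithelial junction list had 16 of 27 differences above 0 and a median of 0.14, against 56.4% of all genes compared above 0. The mesenchymal list had 16 of 21 and 0.30. In both lists 0 genes passed the rule, which 0.741% of all genes compared passed. With gene counts per spike-in count as a term the medians were 0.09 (16 of 27 above 0) and 0.36 (15 of 21). Snai2, a transcription factor of epithelial-mesenchymal transition, was in 11 of 18 and 12 of 32 cells. Cdh2, N-cadherin, was in 16 and 24. Classical tumour genes had 12 of 24 above 0 and a median of 0.02, and basal-like genes 8 of 12 and 0.29.

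The remaining lists had medians of 0.38 for uroplakin, tetraspanin and surface genes (16 of 22 above 0), 0.37 for NF-kB and inflammatory genes (19 of 26), 0.30 for ERK output (17 of 26), 0.28 for p53 targets (17 of 23), 0.28 for actin and adhesion (20 of 27) and 0.28 for S100 genes (11 of 13). Iron handling (9 of 12), annexins (8 of 12), interferon response (9 of 14) and MHC class I (8 of 12) stood at 0.21, 0.17, 0.15 and 0.05. Metallothionein and zinc genes had 2 of 8 above 0 and a median of -0.09, which became 0.12 with spike-in scaling. With gene counts per spike-in count as a term the medians became 0.02 for uroplakin, tetraspanin and surface genes (12 of 22 above 0), 0.20 for NF-kB and 0.15 for ERK output, and the medians of p53 targets (-0.03), interferon response (-0.18) and iron handling (-0.01) were below 0. In these lists the genes past the size rule were S100a14 and H2-T22. Over all genes compared, 56.4% had a difference above 0 and 0.741% passed the rule.

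Most of the immune, fibroblast and endothelial markers with a row were at 0 in all 50 cells, while Cd14 was detected in nearly all. Cd14, an endotoxin co-receptor best known from myeloid cells, was at 1 CPM or more in 18 of 18 expressing and 30 of 32 negative cells, at medians of 106 CPM (7.53 to 262) and 92.0 CPM (0 to 485). Of 12 immune genes with a row 7 were at 0 in all 50 cells, Cd3e, Csf1r, Lyz2 and Tyrobp among them. The fibroblast genes Col1a2, Dcn, Lum and Fap and the endothelial genes Pecam1, Cdh5 and Kdr were also at 0. By contrast, the endothelial gene Egfl7 was at 1 CPM or more in 5 of 18 and 13 of 32 cells, up to 215 CPM. The fibroblast gene Acta2 was in 4 and 1 cells, up to 103.6 CPM, and the immune gene Ly6g in 4 and 2. The summed immune level had a median of 109 CPM in expressing cells (22.3 to 264) and 94.3 CPM in negative cells (0.808 to 485). Fibroblast sums had medians of 0.748 and 0.653 CPM, with highest values of 103.7 and 75.02 CPM. Endothelial sums had medians of 0 and 0.264 CPM, with highest values of 42.2 and 215 CPM. Islet sums had highest values of 0.275 and 0.284 CPM, and red blood cell sums reached 8.64 and 23.1 CPM. Squamous keratinocyte sums had medians of 11.9 CPM (0 to 680) and 19.4 CPM (0 to 365).

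Of 8 acinar genes with a row, Cela1 passed the size rule and Prss2 did not, and no other reached 1 CPM in any cell. The rule was passed by 0.741% of all genes compared. The summed level of 8 acinar genes had a median of 11.4 CPM in expressing cells (0 to 97.6) and 0.139 CPM in negative cells (0 to 76.8), and Cpa1, Amy2a5 and Try4 were at 0 in all cells. Cela1, a pancreatic elastase, was in 7 of 18 and 2 of 32 cells (38.9%, interval 17.3 to 64.3, and 6.25%, interval 0.766 to 20.8). Prss2, a trypsinogen, was in 10 of 18 and 6 of 32, a difference of 1.21 at 0.65 pooled SDs. Their part in the differences of other genes was not tested.

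**Figure D5:**
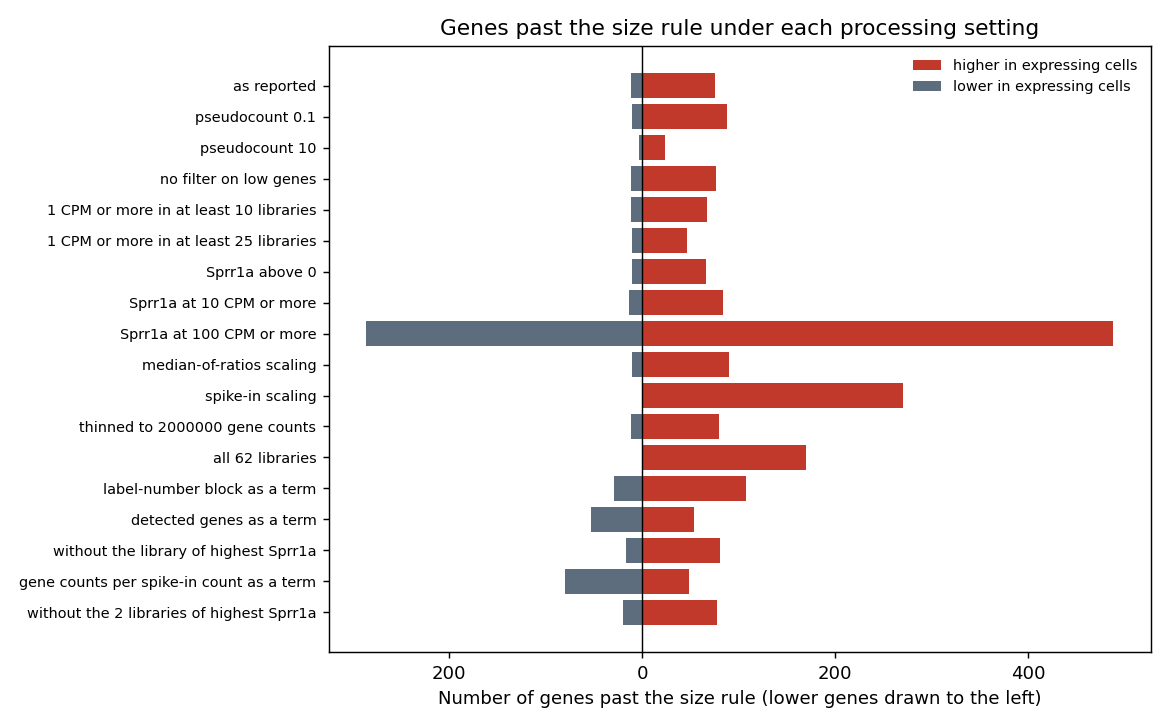
Number of genes past the size rule under each setting, with genes higher in expressing cells drawn to the right in red and lower genes to the left in grey. The reported setting gave 75 and 12, spike-in scaling 270 and 0, and gene counts per spike-in count as a term 48 and 80.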

How the data were processed

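RNA was measured in 62 single cells of 1 culture. The authors deposited estimated counts per gene symbol. Per the submitters' processing notes kallisto was used with build mm9; its release, the gene models and how transcripts were summed were not given in the sources used here. Whole numbers, within 1e-06, made up 66.2% of positive values. The table held 19112 genes and 65 spike-in rows. Of the symbols, 17936 matched reference tables as given, 1101 after restoring characters and 75 did not match.

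Libraries with a spike-in share under 20% were kept. Unrounded counts were scaled to CPM on the gene rows, and 1 was added before taking log2. Genes at 1 CPM or more in at least 5 libraries were compared, leaving out Sprr1a. No test was run, since cells of 1 culture are not replicates. Thinning used rounded counts. No doublet caller was run. Shares carry Clopper-Pearson intervals at 95%, which cover the sampling of cells only and not the choice of genes by the size of their differences. Depth is given with the results. A mean level of a list is the mean log2(CPM + 1) of its compared genes. With an added term, the difference is a least-squares coefficient and the SD that of the residuals.

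Named genes were the 15 of largest difference past the rule in each direction (12 were lower), the 2 of largest difference in pooled SDs per list, the Sprr genes, and the 10 highest and 5 lowest Spearman correlations. One gene that this rule names is not reported here. Members and lists were chosen with earlier results of these data known, and the lists whose mean levels are given were chosen after the list medians were seen. Printed promoters are from RefSeq on GRCm38.p6, another build than that of the counts. The computations, in Python 3.11.15 with numpy 2.4.6 and pandas 2.3.3, were tested on simulated data. Alternatives covered the pseudocount, filter, threshold, scaling, depth, libraries and added terms.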

Additional observations from a re-analysis of the deposited data

Results flagged for a closer look

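Sprr1a was also counted in 2 of the 12 libraries left out for their spike-in share, above the limit of 3 counts that a count of 0 allows. Library 34, with a spike-in share of 77.6%, had an estimated count of 2047, which is 4152 CPM of its 492995 gene counts and more than the 3211 CPM of library 44. It had 1855 detected genes. Library 43, with a spike-in share of 71.1% and 9041 detected genes, had an estimated count of 4, or 10.3 CPM. The other 10 had a Sprr1a count of 0.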

How the results depend on the processing

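The main counts were 75 genes higher, 12 lower and 18 expressing cells. They became 23 higher and 3 lower with a pseudocount of 10, and 46 higher with genes at 1 CPM or more in at least 25 libraries, where fewer genes were compared. With Sprr1a at 100 CPM or more, 5 cells were set against 45, giving 488 higher and 286 lower genes, and the G2 and mitosis level reversed to -0.31. Spike-in scaling gave 270 and 0, and the S phase level reversed to 0.10. Over all 62 libraries the counts were 170 and 0, the S phase level reversed to 0.58, the injury and redox levels moved to 1.32 and 1.15, and 1700123O20Rik reversed to 0.19. The lower count was 29 with the label-number block as a term. With detected genes as a term 54 genes were higher and 53 lower, and the median difference of all genes was -0.05. In settings chosen after seeing the data, gene counts per spike-in count as a term gave 48 and 80 and a G2 and mitosis level of -0.14, and leaving out libraries 42 and 44 gave 20 lower genes. Leaving out each library in turn gave 65 to 101 higher and 10 to 20 lower genes. Beyond fewer genes or cells, the cause of these shifts was not tested.

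The other alternatives kept both counts within 1.5 times. Of the 75 higher genes, 65 were shared with a pseudocount of 0.1, 72 after thinning, 54 with the block as a term and 48 with detected genes as a term. A like count hid a change of genes at other Sprr1a thresholds. Counting every cell above 0 as expressing (21 cells) kept 36 of the 75 higher and 5 of the 12 lower genes, and 10 CPM or more (17 cells) kept 48 and 8. Of 1824 values of 96 named genes under alternatives, 19 moved by more than 1 SD over cells. Reversal was counted only for the 37 named genes past the rule, with 1 reversed value. Differences of other named genes also changed sign. Examples are Slbp, from -0.74 to 0.73 over all 62 libraries, and Cdh2, from 1.45 to -0.41 with Sprr1a at 100 CPM or more. No paired analysis was possible because all cells belong to 1 group. With 18 and 32 cells of 1 culture, the data do not show whether the differences would recur in another culture.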
